A study of Mus musculus with 8 samples.

Results

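The genes described here code for the enzymes that make nucleotides, the building blocks of RNA and DNA, together with the folate enzymes that supply them with one-carbon units. They were chosen by name from the pathway: 39 genes were listed, and 38 of them had a row among the 38392 genes of the table. Pnp was not analysed here. Expression was measured by RNA-seq in cells sorted as eosinophils. Eosinophils are granulocytes made in bone marrow that home to the gut wall and other tissues. The comparison asked how cells sorted from the small intestine differ from those sorted from bone marrow. In every bone marrow library, genes of neutrophil precursors summed far above the eosinophil genes, as given below. All libraries came from wildtype female mice of the strain C57/BL6, with 4 libraries per tissue. Bone marrow cells were sorted as CD11b+, Ly6G-, Ly6C-, SiglecF+ and high in side scatter, and intestinal cells as CD11b+, MHC-II-, SiglecF+ and high in side scatter. The labels give no age, and the methods of the study state only an age range in weeks for the mice of all experiments. By the methods of the study, the intestinal tissue was stripped of its epithelium, digested with warm collagenase and enriched on beads against CD11b, whereas bone marrow was flushed out and sorted without beads, so tissue and handling cannot be told apart.

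Cells obtain nucleotides by separate routes. De novo synthesis builds the purine and pyrimidine rings from amino acids, carbon dioxide and formyl groups carried by folate, and is typical of cells that divide or make much RNA. Salvage takes up finished bases and nucleosides and returns them to nucleotides, and is the route that resting blood cells are known to rely on. DNA synthesis further needs ribonucleotide reductase, which turns ribonucleotides into deoxynucleotides, and the enzymes that make thymidylate, the nucleotide found in DNA and not in RNA. These DNA-related enzymes are known for their rise when cells replicate their DNA.

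Depth ranged from 11508002 to 21289164 gene-assigned reads per library. Libraries are named by the columns of the table, and values are given below in the order BM_1, BM_3, BM_4, BM_5 (bone marrow) and SI_10, SI_11, SI_6, SI_7 (small intestine). A normalised count is a gene's reads over the size factor of the library. The markers of the sorted cells were checked first. Of 8 eosinophil genes, 5 were higher in small intestine in limma, among them Ccr3, Siglecf and Il5ra, and 3 granule protein genes were lower. The 8 genes summed to 3364 to 4533 normalised counts in bone marrow and 42811 to 59638 in small intestine. Epx, the eosinophil peroxidase, had 336, 363, 303 and 398 normalised counts in bone marrow and 29.5, 27.3, 13.1 and 12.5 in small intestine. All 10 genes of neutrophil precursors were lower in small intestine, with a summed level of 370453 to 463167 normalised counts in bone marrow and 522 to 623 in small intestine. Among these Mpo, the peroxidase of neutrophil precursors, had 127019 to 174314 normalised counts in bone marrow, although the gate excluded Ly6G+ and Ly6C+ cells. In every bone marrow library the summed level of the neutrophil precursor genes was far above that of the eosinophil genes. All 8 epithelial genes were higher in small intestine, at 2764 to 18004 normalised counts in sum against 56.5 to 100.4 in bone marrow, and the sum was highest in SI_6. Fibroblast genes were higher for all 5 (sums of 151 to 710 against 5.74 to 53.9). Erythroid genes were lower for 7 of 8 (104 to 191 against 1099 to 1324). Of 6 T cell genes 3 were higher (151 to 205 against 28.0 to 67.9). Of 6 B and plasma cell genes 1 was higher and 2 were lower (427 to 2655 against 245 to 404). In bulk samples such as these, fewer cells of a type and less RNA per cell cannot be told apart, and the part of other cells in the results below was not tested.

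Transcripts of most enzymes of nucleotide synthesis were lower in the small intestine libraries than in those of bone marrow. Of the 38 genes, 30 (78.9%) were lower at a limma adjusted p under 0.05, 3 (7.89%) were higher and 5 did not pass the threshold. Over all 38392 genes, 12.9% were lower and 22.0% higher by the same rule, and among 16215 genes averaging 10 reads or more, as all 38 did, 28.6% were lower and 34.6% higher. The median difference of the 38 genes, taken as intestine minus marrow on the log2-like scale of the deposited values, was -1.90, against 0.37 for all genes and 0.12 for the genes with at least 10 reads. With each library centred on its own median these medians were -2.80 for the 38 genes and -0.53 for all genes, and 26.6% of all genes were lower and 11.2% higher. The 3 genes that rose were Rrm2b, Tk2 and Samhd1, and the 5 that did not pass the threshold were Impdh2, Adss, Ctps2, Dck and Guk1. For 28 genes the difference was below -1, and for 7 it was below -3.

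**Figure D1:**
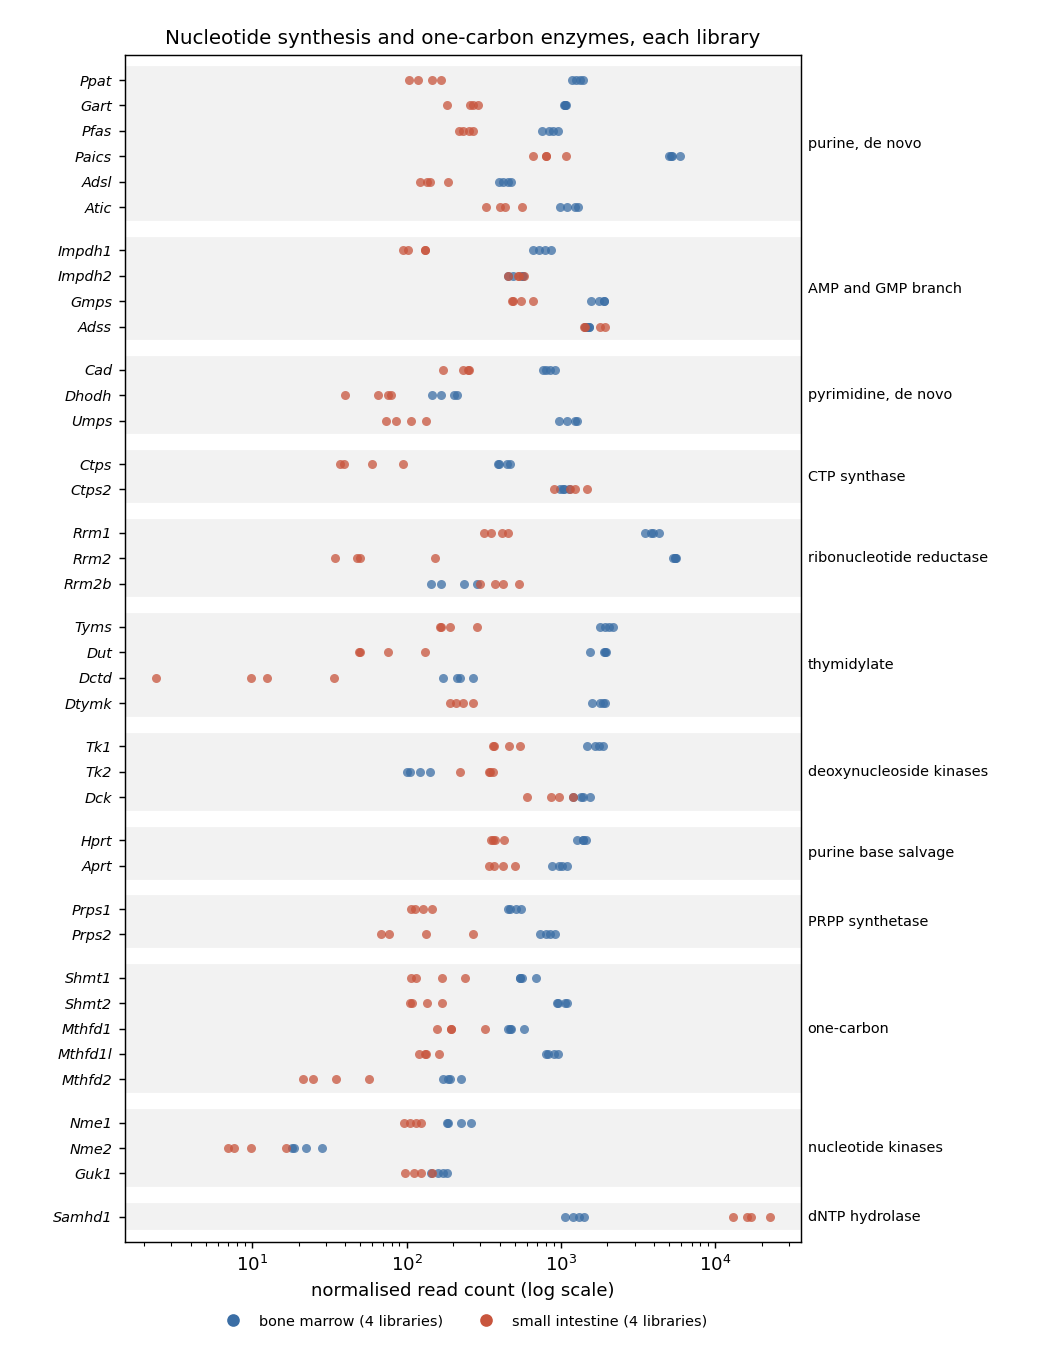
Normalised read count (log scale) of each of the 38 enzymes in each of the 8 libraries, grouped by role, with bone marrow in blue and small intestine in red. The red points lie to the left of the blue ones without overlap for 31 genes, to the right for Rrm2b, Tk2 and Samhd1, and overlap them for 4.

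The separation was also seen library by library. For 31 of the 38 genes every small intestine library lay below every bone marrow library, and for 3 every one lay above. Among the genes with at least 10 reads these shares were 31.3% and 36.0%. Libraries of bone marrow differed little among themselves. Their median SD over the 38 genes was 0.14 on the deposited scale, against 0.30 in small intestine. BM_5 was the lowest bone marrow library for 23 of the 38 genes and the highest for 1. Without BM_5 the median difference of the 38 genes was -1.93. SI_6 was the highest small intestine library for 24 of the 30 genes that fell and the lowest for all 3 that rose, so that it lay nearest to bone marrow. Among the small intestine libraries SI_6 also had the highest sums of epithelial, fibroblast, B and plasma cell, and macrophage and dendritic cell genes. The sum of 16 proliferation genes was highest there too (11350 normalised counts, against 4926 to 6848 in the other small intestine libraries). Its sums of eosinophil and neutrophil precursor genes were the lowest. How these levels bear on the enzymes was not tested. Without SI_6 the median difference of the 38 genes was -1.92, with 31 genes lower and 3 higher.

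All 6 genes of de novo purine synthesis fell, with a median difference of -1.94. Ppat, which catalyses the committed first step, had 1251, 1392, 1336 and 1182 normalised counts in bone marrow and 104, 146, 166 and 118 in small intestine. The libraries were far apart, and the means differed 9.67-fold (difference -3.26 ± 0.21, SE; limma adjusted p = 9.81e-06). Paics, which carries out the carboxylation and succinocarboxamide steps, was the most abundant of the 6 per kilobase of exon in bone marrow, with 1694 ± 120.2 normalised counts per kilobase (SD, n = 4). Its normalised counts were 5867, 5140, 5243 and 5019 in bone marrow and 657, 801, 1083 and 797 in small intestine (-2.69 ± 0.21). Ppat and Paics lie head to head on chromosome 5 (GRCm38, 76913249 to 76951578 and 76951307 to 76967509), and their annotated exons share 272 bases on opposite strands. The strand setting of the counting is not given in the sources used here, so reads from these bases cannot be assigned to one of the pair.

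The smallest fall in this group was that of Atic, which performs the closing steps of the ring, with 1238, 1092, 1293 and 989 normalised counts in bone marrow and 328, 433, 556 and 401 in small intestine (-1.44 ± 0.22). Every small intestine library was still below the lowest bone marrow library. Gart (-2.09 ± 0.20), Pfas (-1.80 ± 0.18) and Adsl (-1.57 ± 0.20), which act between Ppat and Atic, lay between these values. Part of the exons of Gart, 1014 of 5144 bases, overlaps the antisense gene Gm15964. Smaller overlaps on opposite strands exist for Umps with Gm15829 (213 bases), Shmt1 with Smcr8 (184 bases) and Tk1 with Afmid (83 bases).

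Beyond the ring the genes parted. IMP is the branch point from which AMP and GMP are made. Of the IMP dehydrogenases, which start the GMP branch, Impdh1 had 858, 783, 720 and 660 normalised counts in bone marrow and 103, 132, 131 and 94.3 in small intestine (-2.68 ± 0.20). Impdh2, its close relative, had 557, 488, 566 and 453 in bone marrow and 523, 531, 451 and 580 in small intestine. The groups of Impdh2 overlapped (0.01 ± 0.18, limma adjusted p = 0.965), although the sign turned to -0.89 when libraries were centred on their medians. A pseudogene, Impdh2-ps, also has a row in the table, and how reads were divided between the copies is not stated. Gmps, which finishes GMP, fell from 1777 ± 150.9 to 543.4 ± 81.1 normalised counts (mean ± SD, n = 4 each; -1.71 ± 0.19). Adss, which starts the AMP branch, had 1509, 1469, 1510 and 1431 normalised counts in bone marrow and 1793, 1938, 1409 and 1427 in small intestine. Its groups overlapped as well (0.14 ± 0.19, adjusted p = 0.589; -0.76 with median-centred libraries and -0.08 with quantile normalisation, neither past the threshold).

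The 3 genes of de novo pyrimidine synthesis also fell. Umps, which makes UMP in the last steps of the route, had the largest fall, with 1224, 1101, 1275 and 972 normalised counts in bone marrow and 73.3, 85.3, 133 and 107 in small intestine. The mean was 11.5-fold lower in the intestine (-3.50 ± 0.23, limma adjusted p = 1.23e-05). Cad, the large enzyme that performs the opening steps, changed by -1.87 ± 0.20. Dhodh, the mitochondrial enzyme of the route, had the smallest fall, with 146, 212, 203 and 166 normalised counts in bone marrow and 65.6, 75.9, 79.7 and 40.2 in small intestine (-1.45 ± 0.26). The next step, from UTP to CTP, is shared by a pair of CTP synthases. Ctps had 464, 389, 446 and 396 normalised counts in bone marrow and 37.2, 39.1, 95.0 and 59.6 in small intestine (-2.89 ± 0.30). Ctps2 had 1119, 1031, 1039 and 986 in bone marrow and 1227, 1466, 904 and 1150 in small intestine, with overlapping groups (0.16 ± 0.20, adjusted p = 0.541; -0.74 with median-centred libraries). Per kilobase of exon, Ctps2 stood 1.73-fold above Ctps in bone marrow and 14.4-fold above it in small intestine.

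Among genes that supply deoxynucleotides for DNA synthesis, all 7 of Rrm1, Rrm2, Tyms, Dut, Dctd, Dtymk and Tk1 were lower in small intestine, with a median difference of -3.34, and Tk1 is counted with the salvage genes as well. Rrm2b and Tk2 are not among the 7 and are described apart. The other 31 genes had a median of -1.71, with 23 lower and 3 higher. The ranges met, since Umps (-3.50) fell more than Rrm1, and Ppat (-3.26) more than Dtymk and Tk1. Rrm2, the small subunit of ribonucleotide reductase made in dividing cells (ENSMUSG00000020649; chromosome 12, 24708241 to 24714146), had 5505, 5522, 5290 and 5500 normalised counts in bone marrow and 48.1, 34.4, 154 and 49.9 in small intestine. The mean was 76.2-fold lower in small intestine (-6.42 ± 0.41, limma adjusted p = 1.03e-05). Without SI_6, its highest intestinal library, the mean was 124-fold lower. Per kilobase, Rrm2 went from rank 1 to rank 33 among the 38 genes. Rrm1, the large subunit, had 3804, 3930, 4315 and 3503 normalised counts in bone marrow and 317, 353, 453 and 413 in small intestine (-3.34 ± 0.19). Rrm2b, the alternative small subunit known to serve DNA repair and mitochondrial DNA in cells that do not divide (chromosome 15, 37923952 to 37961318), went the other way.

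Rrm2b had 284, 167, 144 and 235 normalised counts in bone marrow and 421, 533, 298 and 373 in small intestine. The groups did not overlap, but SI_6 and BM_1 were close, and the rise was modest (0.97 ± 0.29, limma adjusted p = 0.0282). It missed the threshold when libraries were centred on their medians (0.07) or over genes with at least 10 reads (0.91), and without any one of BM_3, BM_4, SI_10, SI_11 and SI_7 (0.82 to 1.0, adjusted p 0.0538 to 0.0776). Exons of Rrm2b share 734 of 9134 bases with the antisense gene Gm49085. Per kilobase of exon, Rrm2 stood 86.6-fold above Rrm2b in bone marrow, whereas in small intestine the mean of Rrm2b stood 1.72-fold above that of Rrm2. SI_6 weighed on that ratio: there Rrm2 stood 1.70-fold above Rrm2b, whereas Rrm2b was the higher in the other 3 libraries. Without SI_6 the ratio was 3.04. Not corrected for length, Rrm2b was the higher in every small intestine library, at 298 against 154 normalised counts in SI_6.

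Transcripts of the 4 thymidylate genes, Dut, Dctd, Tyms and Dtymk, were all lower in small intestine. Dut, which removes dUTP and yields the dUMP that is methylated, fell most, with 1886, 1966, 1913 and 1537 normalised counts in bone marrow and 49.2, 49.8, 131 and 76.3 in small intestine (-4.61 ± 0.32). Dctd, the dCMP deaminase that also supplies dUMP, had 221, 211, 268 and 172 normalised counts in bone marrow and 9.85, 2.37, 33.8 and 12.5 in small intestine (-3.91 ± 0.52). Only 2 reads lay behind its value in SI_11, the fewest of any of the 38 genes in any library. Tyms, which methylates dUMP to dTMP, had 1791 to 2179 normalised counts in bone marrow and 165 to 285 in small intestine (-3.31 ± 0.23). Dtymk, which phosphorylates dTMP, had the smallest fall of the 4, with 1599 to 1936 normalised counts in bone marrow and 193 to 271 in small intestine (-2.98 ± 0.19). For each of these genes SI_6 was the highest small intestine library and still lay below all of bone marrow. All 16 proliferation genes, a list of mitotic and replication genes, were lower too, with a median difference of -4.01. Mki67 had 29159, 30024, 28552 and 32210 normalised counts in bone marrow and 2695, 2500, 5578 and 3809 in small intestine.

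**Figure D2:**
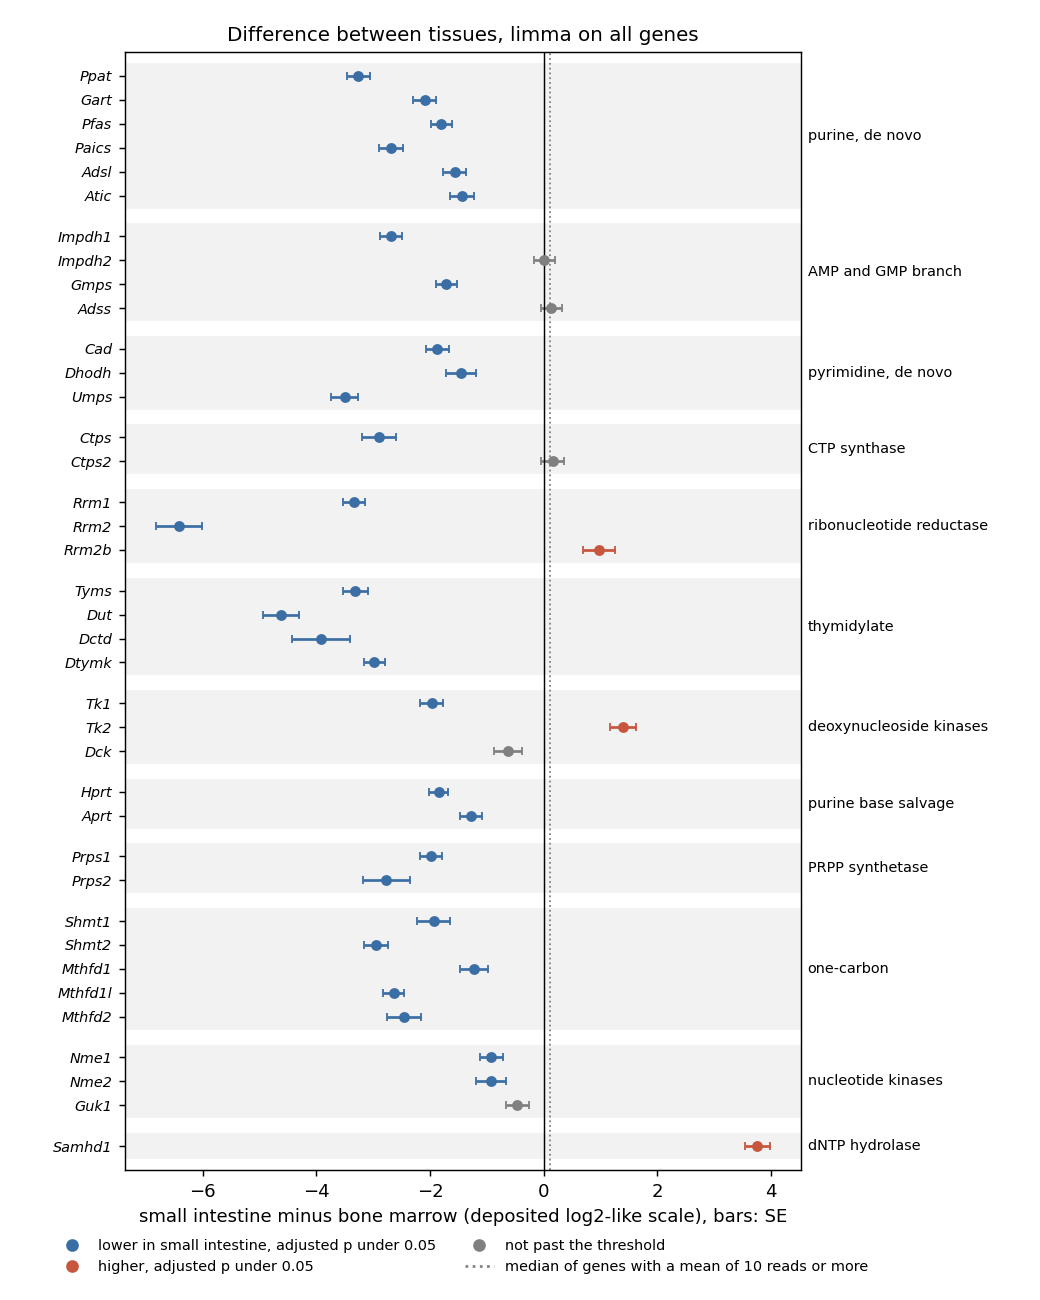
Difference between tissues for each of the 38 enzymes (intestine minus marrow, log2-like scale of the deposited values, bars show the SE of limma fitted on all 38392 genes), grouped by role. The dotted line marks 0.12, the median of the genes with at least 10 reads. The points span from -6.42 for Rrm2 to 3.76 for Samhd1, and the 5 grey points did not pass the threshold.

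Salvage was more mixed. Hprt, which rescues hypoxanthine and guanine, had 1446, 1390, 1265 and 1393 normalised counts in bone marrow and 354, 362, 430 and 376 in small intestine (-1.84 ± 0.17, limma adjusted p = 7.13e-05). Aprt, which rescues adenine, had 968, 1091, 1012 and 869 in bone marrow and 368, 500, 421 and 343 in small intestine (-1.27 ± 0.20). The libraries of the tissues did not overlap for either gene. Hprt, often used as a reference gene in quantitative PCR, differed 3.61-fold between the tissues.

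The kinases that salvage deoxynucleosides went 3 ways. Tk1, the cytosolic thymidine kinase of dividing cells, had 1661, 1754, 1859 and 1477 normalised counts in bone marrow and 362, 462, 543 and 366 in small intestine (-1.97 ± 0.21). Tk2, the mitochondrial thymidine kinase (chromosome 8, 104226685 to 104248558), had 142, 105, 122 and 100.4 in bone marrow and 347, 363, 222 and 340 in small intestine. The mean of Tk2 was 2.71-fold higher in small intestine (1.40 ± 0.23, limma adjusted p = 0.00163), without overlap, but the difference with median-centred libraries was 0.50 and did not pass the threshold. Dck, the deoxycytidine kinase, had 1354, 1381, 1552 and 1204 in bone marrow and 970, 1202, 599 and 867 in small intestine. The groups of Dck touched without overlapping, since SI_11 and BM_5 were nearly equal (-0.63 ± 0.25, adjusted p = 0.0818). Without SI_11 it passed the threshold as lower (-0.78, adjusted p = 0.0309). Per kilobase of exon, Tk1 was 9.90-fold above Tk2 in bone marrow and 0.94 times its level in small intestine. The intestinal libraries did not share an order, since Tk1 was 1.68-fold above Tk2 in SI_6 and below it in the other 3 libraries. Without SI_6, Tk1 stood at 0.78 times the level of Tk2. Not corrected for length, Tk1 averaged 433 normalised counts and Tk2 318 in small intestine, so their order there rests on the exon lengths used.

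To set de novo synthesis against salvage within each library, the mean deposited value of the 9 de novo genes (Ppat, Gart, Pfas, Paics, Adsl, Atic, Cad, Dhodh and Umps) was compared with that of the 5 salvage genes (Hprt, Aprt, Tk1, Tk2 and Dck). This contrast does not move with the scaling of a library. All 9 de novo genes were lower in small intestine, whereas of the 5 salvage genes 3 were lower, 1 was higher and 1 did not pass. The de novo mean differed by -2.18 between the tissues and the salvage mean by -0.86. De novo minus salvage was 0.12, 0.19, 0.23 and 0.21 in bone marrow and -1.32, -1.29, -0.74 and -1.20 in small intestine. The means were 0.19 ± 0.05 and -1.13 ± 0.27 (SD, n = 4 each), a shift of -1.32, and the libraries of the tissues were far apart. No p-value is given, because the genes were chosen with earlier results of these data known. The size of the shift depended on which genes were counted. It was -0.58 for the purine genes alone, -0.93 without Tk1 and Tk2, and -2.32 when 7 further salvage genes were added, and each of these choices kept its direction. The 7 were Adk, Dguok, Uck1, Uck2, Uprt, Upp1 and Cda. Upp1 and Cda, nearly absent from bone marrow, had the largest rises of the further salvage genes. Ada, with one of the largest falls, was not among the 7. How much of the larger shift rested on Upp1 and Cda was not tested.

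**Figure D3:**
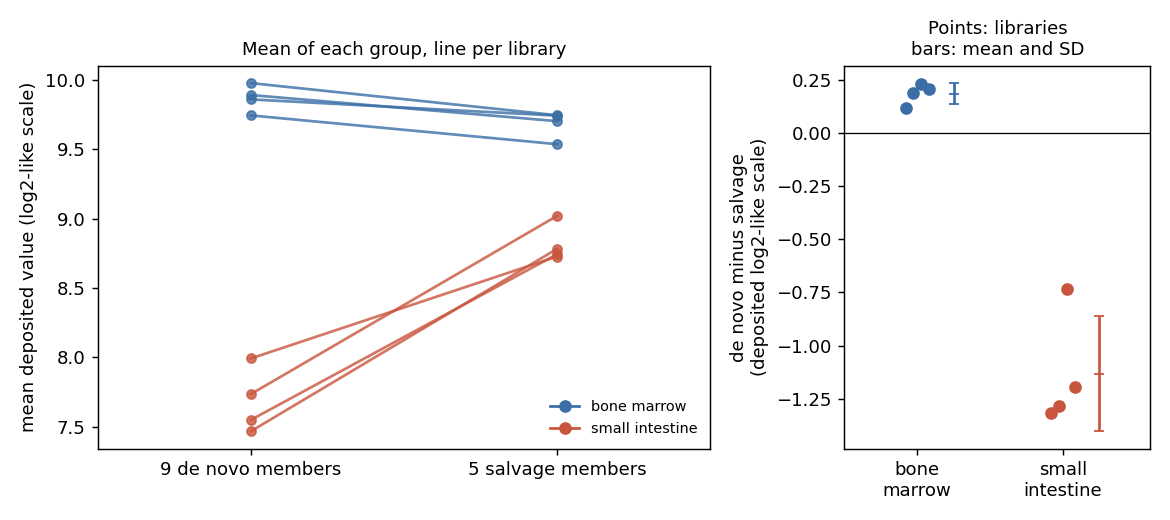
Left, mean deposited value (log2-like scale) of the 9 de novo and the 5 salvage genes, with a line for each library. Right, de novo minus salvage in each library (points), with the mean and SD of 4 libraries per tissue (bars). The bone marrow libraries lie at 0.12 to 0.23 and the small intestine libraries at -1.32 to -0.74, with SI_6 nearest to bone marrow.

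PRPP, the activated ribose on which both routes build, is made by Prps1 and Prps2. Prps1 had 547, 470, 513 and 455 normalised counts in bone marrow and 113, 147, 107 and 128 in small intestine (-1.98 ± 0.19). Prps2 had 855, 920, 728 and 800 in bone marrow and 67.8, 77, 269.6 and 135 in small intestine (-2.76 ± 0.41). Both fell without overlap. SI_6 was the highest small intestine library for Prps2 and the lowest for Prps1.

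All 5 one-carbon genes fell, with a median difference of -2.45. In the mitochondrion, Shmt2 takes a carbon unit from serine, Mthfd2 oxidises it and Mthfd1l releases it as formate. In the cytosol Mthfd1 loads formate back onto folate for purine synthesis, and Shmt1 interconverts serine and glycine. Shmt2 had 1063, 947, 1100 and 950.1 normalised counts in bone marrow and 108, 105, 169 and 136 in small intestine, the largest fall of the group (-2.95 ± 0.21, limma adjusted p = 1.77e-05). Mthfd2 had 173, 190.4, 186 and 227 in bone marrow and 35, 21.3, 56.8 and 25.0 in small intestine (-2.45 ± 0.30). Mthfd1l had 902, 798, 959.8 and 823 in bone marrow and 132, 121, 162 and 135 in small intestine (-2.64 ± 0.18). The cytosolic Shmt1 had 561, 546, 693 and 544 in bone marrow and 106, 115, 240.1 and 171 in small intestine (-1.93 ± 0.28). Mthfd1 had 471, 454, 579 and 469 in bone marrow and 158, 193, 319.8 and 193 in small intestine, the smallest fall of the 5 (-1.22 ± 0.25). The 3 mitochondrial genes summed to 1936 to 2246 normalised counts in bone marrow and 248 to 388 in small intestine.

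The 3 kinases that raise monophosphates and diphosphates to the next level had a median difference of -0.92. Nme1, a nucleoside diphosphate kinase, had 185, 261, 183 and 225 normalised counts in bone marrow and 96.3, 124, 115 and 105 in small intestine (-0.92 ± 0.20). Nme2, its neighbour on chromosome 11, had 28.3, 22.2, 18.2 and 18.6 in bone marrow and 7.66, 16.6, 9.82 and 6.93 in small intestine (-0.92 ± 0.27, limma adjusted p = 0.0263). Exons of both are shared with the read-through gene Gm20390, by 418 bases for Nme1 and 573 for Nme2 on the same strand, so their counts are uncertain. Nme2 missed the threshold without any one of BM_1, BM_3, SI_10 and SI_7 (-0.91 to -0.80, adjusted p 0.0606 to 0.0758). Guk1, the guanylate kinase, had 159, 183, 173 and 143 in bone marrow and 112, 97.2, 146 and 123 in small intestine, with overlapping groups (-0.46 ± 0.20, adjusted p = 0.114). It passed the threshold as lower without BM_5 (-0.52) or without SI_6 (-0.56).

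Samhd1 showed the largest rise. It codes for a hydrolase that degrades deoxynucleoside triphosphates and is known for keeping them low in resting myeloid cells. Samhd1 (ENSMUSG00000027639; chromosome 2, 157097533 to 157135265, reverse strand) had 1302, 1400, 1198 and 1067 normalised counts in bone marrow and 16959, 22573, 13063 and 15974 in small intestine. All small intestine libraries were far above those of bone marrow, and the means differed 13.8-fold (3.76 ± 0.22, limma adjusted p = 6.64e-06; 2.86 with median-centred libraries, also past the threshold). Per kilobase of exon it rose from rank 25 to rank 1 of the 38 genes, at 135.7 ± 15.6 in bone marrow and 1873 ± 435 in small intestine. Macrophage and dendritic cell genes were higher in small intestine for 6 of 7 markers, with a summed level of 602 to 834 normalised counts in bone marrow and 14547 to 24007 in small intestine. Their sum was highest in SI_6, the library in which Samhd1 was lowest, and without SI_6 the difference of Samhd1 was 3.88. Every small intestine library had a far higher sum than any of bone marrow, and the part of such cells in the Samhd1 counts was not tested. Among the 7 markers is Adgre1 (EMR1). The study used EMR1 to identify human eosinophils, so the sum may include transcripts of eosinophils.

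Related enzymes were next compared within each library, as the difference of their deposited values, which does not move with scaling. Of 9 pairs, 6 shifted between the tissues without overlap of the libraries. For single genes averaging 10 reads or more, 36.0% lay higher and 31.3% lower in small intestine without overlap. The share for pairs of other genes was not computed. Each of the 6 pairs had a 2-sided exact permutation p of 0.0286 (n = 4 each, 70 assignments), the smallest this design can give. After Benjamini-Hochberg adjustment over the 9 pairs this p was 0.0429. The pairs were chosen with earlier results of these data known, so these p-values describe the separation of the libraries and are not independent support for it. Rrm2 minus Rrm2b shifted most, from 4.26 to 5.16 in bone marrow to -3.82 to -0.94 in small intestine (mean shift -7.39). Tk1 minus Tk2 shifted by -3.37, Ctps minus Ctps2 by -3.05 and Impdh1 minus Impdh2 by -2.70. Per kilobase, Impdh1 was 1.37-fold above Impdh2 in bone marrow, and Impdh2 was 4.85-fold above Impdh1 in small intestine.

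The cytosolic and mitochondrial one-carbon enzymes shifted against each other as well. Shmt1 minus Shmt2 rose by 1.02, from -0.92 to -0.66 in bone marrow to -0.03 to 0.50 in small intestine, and Mthfd1 minus Mthfd1l rose by 1.41. Per kilobase, Shmt2 was 2.16-fold above Shmt1 in bone marrow and 1.03-fold in small intestine. For Mthfd2 minus Mthfd1l, both mitochondrial, the shift was 0.18 and the libraries overlapped (exact permutation p = 0.4, adjusted 0.45). Prps1 minus Prps2 shifted by 0.79 with overlap, ranging from -0.96 to -0.50 in bone marrow and from -1.30 to 0.90 in small intestine (exact permutation p = 0.2, adjusted 0.257). Without SI_6, its libraries no longer overlapped. Nme1 minus Nme2 averaged 3.09 in both tissues.

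**Figure D4:**
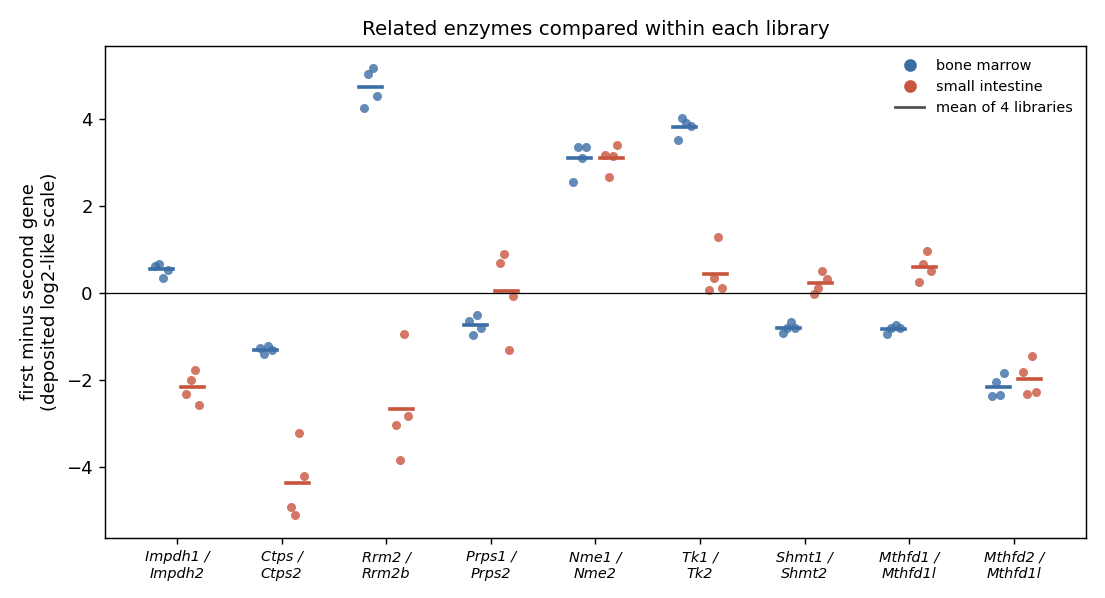
Difference of the deposited values (log2-like scale, not corrected for exon length) of 9 pairs of related enzymes within each library, with bone marrow in blue, small intestine in red and the mean of 4 libraries as a line. The groups are apart for 6 pairs, with the widest shift (-7.39) for Rrm2 and Rrm2b, and overlap for Prps1 and Prps2, Nme1 and Nme2, and Mthfd2 and Mthfd1l.

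Other genes of the pathway gave a less uniform picture. Of 72 listed, 71 were found, of which 10 were higher, 28 lower and 33 did not pass the threshold (Nme3 was not analysed here). These are 14.1% higher and 39.4% lower, against 34.6% and 28.6% of the genes averaging 10 reads or more and 22.0% and 12.9% of all genes. Their median difference was -0.49. With median-centred libraries 5 were higher and 38 lower, and without SI_6 these numbers were 12 and 30. Among 23 further folate and one-carbon genes, 4 rose and 8 fell (17.4% and 34.8%). With median-centred libraries these numbers were 2 and 13 (8.70% and 56.5%), after quantile normalisation 4 and 13 (17.4% and 56.5%), and without SI_6 they were 6 and 9. Of all genes, 11.2% were higher and 26.6% lower with median-centred libraries, and 15.5% and 18.3% after quantile normalisation. Phgdh, which starts serine synthesis, had the largest fall (-4.43 ± 0.23). The largest rises were those of Aldh1l2, the mitochondrial enzyme that oxidises formyl folate to carbon dioxide (3.56 ± 0.46), and Mthfs (2.91 ± 0.20), which returns a storage form of folate to use.

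In 17 further salvage genes, 3 rose and 6 fell (17.6% and 35.3%), and with median-centred libraries 2 rose and 7 fell. Upp1, the uridine phosphorylase, had 0, 0.65, 1.91 and 3.72 normalised counts in bone marrow and 408, 434, 224 and 244 in small intestine (6.36 ± 0.43). Cda, the cytidine deaminase, was nearly absent from bone marrow, at no more than 0.77 normalised counts in any library, and had 17.5, 15.4, 111 and 52.7 in small intestine, highest in SI_6 (3.97 ± 0.59). Ada, the adenosine deaminase (-2.80 ± 0.22), and Uck2, a uridine and cytidine kinase (-2.80 ± 0.25), fell most. Of 13 further nucleotide kinases and related genes, 6 fell (46.2%) and none rose, with Ak4 (-4.50 ± 0.42) and Nme4 (-3.50 ± 0.31), both mitochondrial, at the head. Among the genes averaging 10 reads or more, 28.6% were lower and 34.6% higher, and among all genes 12.9% and 22.0%.

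Among 18 breakdown genes 3 rose and 8 fell (16.7% and 44.4%), or 1 and 10 with median-centred libraries (5.56% and 55.6%). Of the genes averaging 10 reads or more, 34.6% were higher and 28.6% lower, and of all genes 22.0% and 12.9%. With median-centred libraries the shares of all genes were 11.2% and 26.6%. Dpyd, which starts pyrimidine breakdown, had 1.53, 0.65, 1.91 and 13.9 normalised counts in bone marrow and 27.3, 65.2, 331 and 119 in small intestine (4.0 ± 0.77), highest in SI_6. Upb1, the last enzyme of that route, rose by 1.85 ± 0.55, while Gda, the guanine deaminase (-2.43 ± 0.20), and Dctpp1, a dCTP pyrophosphatase (-2.20 ± 0.27), fell. Of 7 nucleoside transporters 4 rose and 2 fell (57.1% and 28.6%), or 3 and 3 with median-centred libraries. Slc28a3, a concentrating carrier, rose by 3.46 ± 0.66, and Slc29a2, an equilibrating one, had 24.5, 19.6, 29.7 and 29.7 normalised counts in bone marrow and 343, 316, 208 and 294 in small intestine (3.31 ± 0.23). Slc28a2, the purine-preferring carrier, fell by 1.30 on the deposited scale from a high level, with 2998 to 3690 normalised counts in bone marrow and 1182 to 1600 in small intestine. Slc29a3, found in lysosomes, differed by -1.01 ± 0.22.

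Of 12 transcription factors tied to these pathways, 3 rose and 8 fell (25.0% and 66.7%), or 1 and 8 with median-centred libraries. Among the genes averaging 10 reads or more, 34.6% were higher and 28.6% lower, and among all genes 22.0% and 12.9%. The E2F family drives the genes of DNA synthesis, and its members E2f8 (-4.22 ± 0.28) and E2f7 (-3.98 ± 0.29), both repressors within it, fell most. Mycl, at 0 in all bone marrow libraries and at 11.9 to 44.8 normalised counts in small intestine, rose, as did Atf4, the regulator of serine and one-carbon genes under stress, with 1291 to 1366 normalised counts in bone marrow and 2952 to 3759 in small intestine (1.37 ± 0.17). Myc, a known activator of nucleotide synthesis that was named after its values were seen, had 2731, 2478, 2415 and 2963 normalised counts in bone marrow and 470, 690, 675 and 745 in small intestine (-2.05 ± 0.21).

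Promoters of the enzymes were searched for the letters that these factors are known to bind: CACGTG, the E-box of Myc, and TTTCCCGC and TTTGGCGC, sites of E2F, each on both strands. The E-box reads the same on both strands, and none of the motifs contains another. Windows ran from 250 bases before to 50 after an annotated start (RefSeq, GRCm38.p6), and 35 of the 38 genes had 44 windows. Pfas, Rrm2b and Dhodh had none. CACGTG was found in 7 of the 44 windows (15.9%), from 6 genes, against 7.15% of all 32851 promoters. These were Atic, Dtymk, Tyms, Paics and Nme1, all lower in small intestine, and Impdh2, which did not pass the threshold. Of the 35 genes with windows, 28 were lower in small intestine, 2 were higher and 5 did not pass the threshold. CACGTG was found in 5, 0 and 1 of these, respectively. TTTCCCGC was found in Ppat and Prps2 and TTTGGCGC in none, so that 2 windows (4.55%) held an E2F motif against 1.57% of all promoters. A match is only a match of letters, and none of these windows was shown to be bound in these cells. Only these exact letters were searched, so a window without a match can still hold a site that differs from them.

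Tyms makes dTMP and Dtymk phosphorylates it, and their transcripts fell together, whereas Nme1 had the smallest fall among genes with the CACGTG motif. The stretches around the E-box of Dtymk, Tyms and Nme1 are shown for this reason. All are on the reverse strand, at chr1:93802060-93802099, chr5:30073664-30073703 and chr11:93968032-93968071 (GRCm38.p6), and are written 5′ to 3′ with the motif in capitals. The motif begins 148, 61 and 29 bases before the annotated start, respectively.
Dtymk: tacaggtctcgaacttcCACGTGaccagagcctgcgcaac
Tyms: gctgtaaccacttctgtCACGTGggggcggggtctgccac
Nme1: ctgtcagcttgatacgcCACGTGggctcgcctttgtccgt

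The 250 bases before the start of Umps, which fell most among the de novo genes, and of Tk2, which rose among the salvage genes, held none of the motifs. They are given as the contrast, from the reverse strand at chr16:33967039-33967288 and chr8:104248559-104248808.
Umps: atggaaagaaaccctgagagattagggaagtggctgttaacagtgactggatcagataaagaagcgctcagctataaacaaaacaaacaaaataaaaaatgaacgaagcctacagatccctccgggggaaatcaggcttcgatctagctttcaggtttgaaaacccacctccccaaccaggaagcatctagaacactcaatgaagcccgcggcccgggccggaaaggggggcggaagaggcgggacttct
Tk2: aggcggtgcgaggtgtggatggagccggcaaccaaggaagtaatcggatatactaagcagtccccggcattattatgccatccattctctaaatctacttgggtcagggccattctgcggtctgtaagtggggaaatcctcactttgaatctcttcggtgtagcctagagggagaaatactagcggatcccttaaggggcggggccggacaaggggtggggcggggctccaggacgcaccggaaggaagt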

How the data were processed

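RNA from cells sorted as eosinophils was converted to cDNA, amplified and read from a single end in 8 libraries. Per the labels and the methods of the study, the authors aligned reads to GRCm38 (Ensembl release 86), counted them per gene with nf-core/rnaseq and deposited values on a log2-like scale, variance-stabilised with DESeq2 (R 4.0.3 in the submitters' processing notes). Aligner, strand setting and handling of multi-mapping reads: not given in the sources used here. Columns name the tissue but not the sample, so libraries carry column names.

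The transformation was inverted from its lowest value, and 100.0% of values in every library came out as whole reads (tolerance 0.05), with size factors of 0.721 to 1.53. The depth, in total reads per library, limits precision mainly for genes with few reads. That libraries came from separate mice rests on the methods of the study. Exon lengths came from GENCODE M21, as the union of all annotated exons of a gene, which can exceed the transcript made in these cells. Ranks and ratios of genes per kilobase therefore depend on the annotation.

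The deposited unit is log2, so limma 3.58.1 (R 4.3.3) on all 38392 genes took the place of a count model, with no covariate or filter, a 2-sided test, Benjamini-Hochberg adjustment over all genes and a threshold of 0.05. Pairs of enzymes were compared with exact permutation tests. Alternatives were other scalings, a filter, other priors, voom on recovered reads, log2 of normalised counts with a pseudocount of 1 or 5, and leaving out each library. The 39 genes and all lists were chosen with earlier results of these data known. Genes were named by a rule: pairs, extremes of each role, genes not past the threshold or against their role, and the 2 largest rises and falls of each other list, of which 1 fall is not reported here. Python 3.11.15, numpy 2.4.6, pandas 2.3.3 and matplotlib 3.10.9 served the other steps.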

Additional observations from a re-analysis of the deposited data

Results flagged for a closer look

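In 5 of 96 groups of 4 values examined, the values of the 38 enzymes and of derived contrasts in each tissue, 1 library stood apart from the others, by the gap to its nearest neighbour divided by the range of the group (past Dixon's limit for groups of 4). Chance sets apart about 1 in 20 groups, or 4.8 here. Rrm2 was lowest in BM_4 among the bone marrow libraries (gap 0.906 of the range), which spans only 5290 to 5522 normalised counts. Dut was lowest in BM_5 (0.833), at 1537 against 1886 to 1966 normalised counts. Tk2 was lowest in SI_6 among the small intestine libraries (0.867), at 222 against 340 to 363 normalised counts. Shmt1 (0.873) and Mthfd1 (0.846) were highest in BM_4, at 693 and 579 normalised counts. None of these libraries crossed into the range of the other tissue.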

How the results depend on the processing

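Of the 33 genes called, 30 kept their call and direction in all 17 settings, and the other 3 were Nme2, Rrm2b and Tk2. The number of genes lower in small intestine was 29 to 32 over these settings, and 29 to 31 when a library was left out. The number higher was 3, but 1 with median-centred libraries and 2 when centred over genes with at least 10 reads, a setting chosen after the data were seen, and 2 or 3 when a library was left out. Signs turned only for genes that did not pass the threshold. With median-centred libraries the difference was -0.76 for Adss, -0.74 for Ctps2 and -0.89 for Impdh2. Of the 38392 genes, 22177 averaged under 10 reads, and such genes entered those medians. With quantile normalisation the difference was -0.079 for Adss. Centred over genes with at least 10 reads, it was -0.050 for Impdh2, while Adss (0.07) and Ctps2 (0.10) kept their sign. When a library was left out, Impdh2 ranged from -0.047 to 0.081. Nme2 missed the threshold with a variance trend and voom, and without BM_1, BM_3, SI_10 or SI_7. Dck passed it in 7 settings and Guk1 in 6, each as lower. De novo minus salvage, main shift -1.32, was -1.60 without Tk1, -0.91 with later de novo steps, -2.32 with 7 further salvage genes, -0.58 for purine genes only, -0.93 without Tk1 and Tk2 (added after the data were seen) and -0.63 as a median, and -1.45 to -1.26 when a library was left out. The number of pairs that shifted was 6, or 7 without SI_6. No paired analysis was possible because no replicate number occurs in both tissues. Few reads limit Dctd and Nme2 in small intestine.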
